A study of Mus musculus with 8 samples.

Results

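Type I interferon-stimulated genes are the genes whose transcription follows signalling by interferon alpha and beta. The set examined here has 42 genes, chosen by symbol as well-known interferon-stimulated genes, and all 42 were found among the 23302 entries of the table (Ddx58 is the older symbol of Rigi). All 42 passed the filter on low values, a mean of at least 10 normalized counts over the 8 libraries, as did 13011 entries in all. Interferon alpha and beta bind the receptor chains Ifnar1 and Ifnar2, whose kinases Tyk2 and Jak1 activate STAT proteins such as Stat2. Stat2 and Irf9 are part of the ISGF3 complex, which binds the interferon-stimulated response element in promoters. The products sense viral nucleic acid, degrade or trap viral RNA, tag proteins with Isg15 and restrict virus entry and release.

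RNA was sequenced from naive B cells of spleens of C57BL/6 mice with and without a pancreatic tumor. The 4 groups of 2 libraries were EBi3KO tumor and EBi3KO nontumor, from mice of the genotype labelled B-EBi3- (BEBi3-/- in the design text), read as loss of Ebi3 in B cells, a subunit shared by the cytokines IL-35 and IL-27, and WT tumor and WT nontumor, from wild-type mice. For the nontumor groups the labelled tumor status is WT, which was read as tumor-free. The sources used here give neither age, nor how Ebi3 was removed, nor the kind of tumor. They also do not say whether the 2 libraries of each group are from different animals, so the p-values reflect the spread between libraries only, which may be technical.

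Depth ran between 21291892 and 28297319 reads. Ebi3 had 8.70 and 11.0 normalized counts in EBi3KO tumor and 201 and 164 in WT tumor. In mice without a tumor it had 12.8 and 11.5 in EBi3KO and 8.94 and 11.0 in WT, so its level separated the genotypes in tumor mice and was low in both without a tumor. The defining B cell genes Cd79a and Ms4a1 had at least 41392 normalized counts in every library. The WT tumor libraries differed from the 6 others in title prefix and in genes of the sex chromosomes: Xist, expressed from the inactive X chromosome of females, had at least 19758 normalized counts in them and at most 18.3 elsewhere, and the Y-linked Eif2s3y had 0 against at least 2355. In the tumor effect in WT (WT tumor minus WT nontumor), tumor cannot be told apart from sex and title prefix. In the genotype effect in tumor mice (EBi3KO tumor minus WT tumor) genotype cannot be told apart from them, and in the interaction (how far the tumor effect of EBi3KO exceeds that of WT) neither can the genotype difference in the tumor effect. The log2 differences of the tumor effect in EBi3KO (EBi3KO tumor minus EBi3KO nontumor) hold neither difference. Nor do those of the genotype effect without a tumor (EBi3KO nontumor minus WT nontumor). The p-values of both comparisons still use a spread estimated from every library, WT tumor among them. The EBi3KO tumor libraries differed from each other by a chi-square of 2.01 per degree of freedom, against 13.1 to 20.3 in the other pairs, so their spread may be technical.

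The response element is shown here in the promoters of the 5 genes with a promoter entry and the largest called changes in the tumor effect in EBi3KO, the tumor comparison free of the sex difference. The sequences are from RefSeq (GRCm38.p6) and cover 250 bases before and 50 bases after the annotated start, with each match to the motif, GAAA then any 2 bases then GAAA, or to its reverse complement, in capitals; overlapping matches form 1 run. They are Rsad2 at chr12:26456403-26456702 (minus strand), Isg20 at chr7:78913174-78913473 (plus strand, the first of its 3 listed starts), Parp12 at chr6:39118300-39118599 (minus strand), Isg15 at chr4:156200769-156201068 (minus strand) and Ifitm3 at chr7:141010695-141010994 (minus strand).
Rsad2: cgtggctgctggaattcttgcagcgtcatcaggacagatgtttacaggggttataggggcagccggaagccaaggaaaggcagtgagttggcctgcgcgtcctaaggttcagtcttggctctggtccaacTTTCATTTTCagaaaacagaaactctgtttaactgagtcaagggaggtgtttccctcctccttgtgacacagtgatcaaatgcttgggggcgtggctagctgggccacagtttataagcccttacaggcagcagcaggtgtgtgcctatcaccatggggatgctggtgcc
Isg20: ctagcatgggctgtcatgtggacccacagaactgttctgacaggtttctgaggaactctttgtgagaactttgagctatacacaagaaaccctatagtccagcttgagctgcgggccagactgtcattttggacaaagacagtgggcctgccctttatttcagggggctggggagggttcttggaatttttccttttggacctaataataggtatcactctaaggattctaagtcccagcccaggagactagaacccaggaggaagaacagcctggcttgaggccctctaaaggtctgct
Parp12: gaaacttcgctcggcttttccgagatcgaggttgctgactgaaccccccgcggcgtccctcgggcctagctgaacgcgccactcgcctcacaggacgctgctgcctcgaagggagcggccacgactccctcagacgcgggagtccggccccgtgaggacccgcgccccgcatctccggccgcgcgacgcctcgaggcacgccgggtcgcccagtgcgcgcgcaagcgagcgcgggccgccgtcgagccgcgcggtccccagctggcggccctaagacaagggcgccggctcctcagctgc
Isg15: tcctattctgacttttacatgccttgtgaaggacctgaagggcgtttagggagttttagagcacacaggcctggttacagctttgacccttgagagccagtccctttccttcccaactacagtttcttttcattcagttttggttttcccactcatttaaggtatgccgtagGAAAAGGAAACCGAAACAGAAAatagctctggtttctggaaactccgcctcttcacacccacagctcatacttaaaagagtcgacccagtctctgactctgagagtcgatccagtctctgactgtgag
Ifitm3: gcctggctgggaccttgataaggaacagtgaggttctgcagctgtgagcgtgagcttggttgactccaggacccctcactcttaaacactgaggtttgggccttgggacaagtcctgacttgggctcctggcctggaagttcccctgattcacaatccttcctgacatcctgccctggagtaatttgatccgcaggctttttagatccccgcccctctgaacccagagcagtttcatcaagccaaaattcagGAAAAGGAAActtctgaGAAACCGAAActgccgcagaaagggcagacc

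The Rsad2 match lies on the strand opposite to the gene and begins 120 bases before the start. Isg15 carries 3 overlapping matches that begin 78, 72 and 66 bases before the start. In Ifitm3 both matches lie just downstream of the start, at bases 3 and 20 of the transcript, and the windows of Isg20 and Parp12 hold none. Of the 42 genes 31 had a promoter entry, and 12 of these 31 (38.7%) held the motif, against 3.99% of all 27025 genes with a promoter entry (3.44% of all 32851 single windows). The 12 were Ddx58, Ifih1, Eif2ak2, Oas1a, Oas3, Ifit1, Ifit3, Rsad2, Bst2, Ifitm3, Isg15 and Trim30a. Of the genes with an entry that rose in WT tumor, 4 of 14 held it, as did 5 of 11 that fell. In the tumor effect in EBi3KO it was in 7 of the 11 that fell and in 0 of the 2 that rose. Genes without an entry are in none of these counts. Of them, Oas2, Mx1, Mx2, Parp9, Parp14 and Zbp1 rose in WT tumor, Ifi204, Rtp4 and Ifi27l2a fell, and Dhx58 and Usp18 were not called. A match describes these letters only.

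The tumor effect in WT split the set, as it split all tested genes. Against WT nontumor, 20 of the 42 genes (47.6%) rose and 14 (33.3%) fell in WT tumor, while 39.6% of all 13011 tested genes rose and 40.1% fell (79.8% called either way). The median log2 difference of the 42 was 0.23, and that of all tested genes was 0.01. A gene is called where limma's two-sided test, with Benjamini-Hochberg adjustment across the 13011 genes, gives an adjusted p below 0.05. In the tumor effect in EBi3KO 3 genes (7.14%) rose and 13 (31.0%) fell, beside 14.1% and 18.5% of all tested genes (32.6% either way), with a median of -0.06. That split depended on the scaling: of all tested genes 1841 were higher and 2401 lower, against 2477 and 2130 after quantile normalization, where 7 of the 42 were higher and 13 lower, and 2116 and 1966 in the fit that takes out transcript length and GC content, where 5 were higher and 11 lower. Both tumor effects called Mx1, Trim25 and Adar higher, which were 3 of the 20 rises in WT and 3 of the 3 in EBi3KO. Of the falls, 10 genes were common to both, which were 10 of the 14 falls in WT and 10 of the 13 in EBi3KO. No gene was called in opposite directions. No such overlap is given here for all tested genes, so these counts describe the 42 genes only. In bulk RNA, fewer cells of a type and less RNA per cell cannot be told apart.

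**Figure D1:**
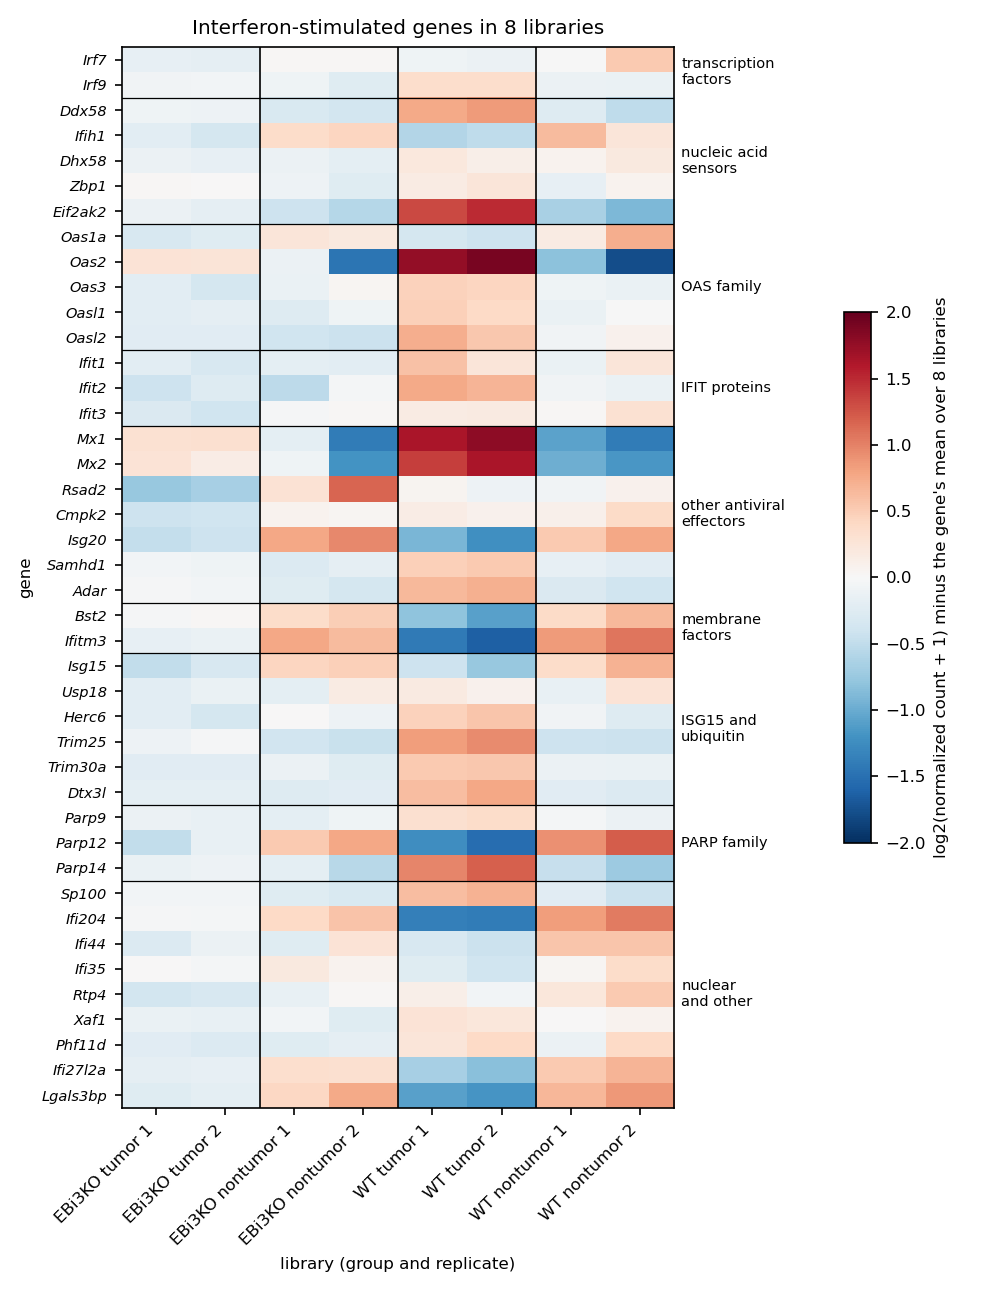
Log2(normalized count + 1) of the 42 genes (rows, by role) in the 8 libraries (columns, by group), each minus the gene's mean over the 8 libraries, in log2 units with the colours ending at 2 and -2. Mx1, Mx2 and Oas2 are highest in WT tumor, and Ifitm3, Ifi204 and Parp12 are lowest there, with EBi3KO tumor in between.

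Both WT tumor libraries lay above the 6 others for 22 genes (52.4%), against 38.9% of all tested genes, and below them for 11 (26.2%), against 38.4%. The group means were highest in WT tumor for 25 of the 42 genes, in WT nontumor for 15, in EBi3KO nontumor for 2 and in EBi3KO tumor for 0. They were lowest in EBi3KO tumor for 13, in WT tumor for 12, in WT nontumor for 9 and in EBi3KO nontumor for 8. The same counts for all tested genes are not given here. Together the 42 genes took 0.258% of reads in both EBi3KO tumor libraries, 0.231% and 0.241% in EBi3KO nontumor, 0.416% and 0.435% in WT tumor and 0.233% and 0.235% in WT nontumor. These shares, like the marker shares below, are of total reads, which the scaling of the normalized counts did not follow. They therefore do not show the size or direction of a change in normalized counts. On that scale 17 of the 42 log2 differences were above 0 and 25 below in EBi3KO, and 26 and 16 in WT (tumor minus nontumor).

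**Figure D2:**
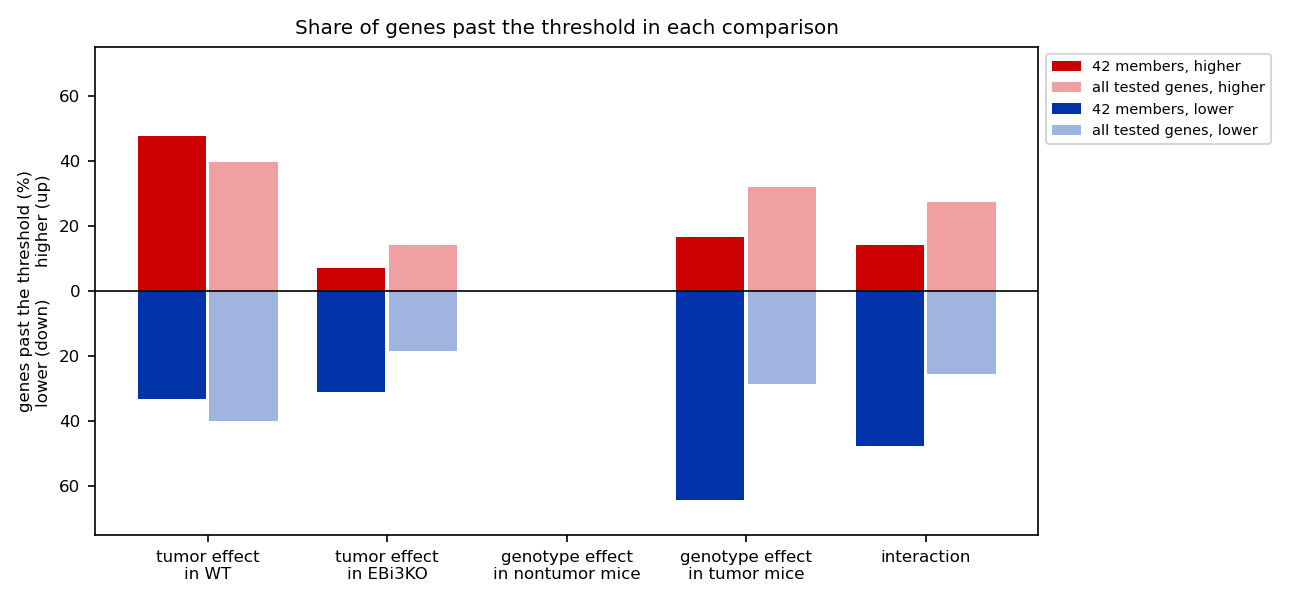
Percentage of genes past the threshold in each comparison, drawn upward for higher and downward for lower, for the 42 interferon-stimulated genes (dark bars) and all 13011 tested genes (pale bars). In the genotype effect in tumor mice 64.3% of the 42 genes were lower, against 28.6% of all tested genes, and no gene passed in nontumor mice.

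Transcription factors. Irf9, the DNA-binding subunit of ISGF3, had 2802 and 2826 normalized counts in EBi3KO tumor, 2749.6 and 2477 in EBi3KO nontumor, 3748 and 3745 in WT tumor and 2699.7 and 2683 in WT nontumor. WT tumor stood above all other libraries, and the log2 difference was 0.48 ± 0.07 (SE) in WT (adjusted p = 0.00026, limma) and 0.11 ± 0.07 in EBi3KO (adjusted p = 0.26). Irf7, the factor that amplifies interferon gene transcription, fell by 0.36 on the log2 scale in WT tumor (adjusted p = 0.048), where 1072 and 1099.8 stood against 1156 and 1676 in WT nontumor. Without that second WT nontumor library the Irf7 difference was -0.09 and not called, and it was 0.15 (adjusted p = 0.31) in the fit that takes out, library by library, the dependence on transcript length and GC content (the length and GC fit).

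Nucleic acid sensors. Eif2ak2, the kinase PKR that halts translation on double-stranded RNA, had 594 and 566 normalized counts in EBi3KO tumor, 486 and 433 in EBi3KO nontumor, 1618 and 1818 in WT tumor and 411 and 347 in WT nontumor. Both WT tumor values were far above those of the 6 other libraries, and it rose 4.53-fold in WT tumor (log2 2.18 ± 0.11, adjusted p = 9.5e-07) against a log2 difference of 0.34 ± 0.11 in EBi3KO (adjusted p = 0.051). Ddx58, the sensor RIG-I, had 2269 and 2264 in EBi3KO tumor, 1968 and 1882 in EBi3KO nontumor, 4086 and 4380.0 in WT tumor and 2030.1 and 1696 in WT nontumor. It too was high in WT tumor alone, where it rose 2.28-fold (log2 1.19 ± 0.09, adjusted p = 5.9e-06), and the difference in EBi3KO was 0.24 ± 0.09 (adjusted p = 0.079). Ifih1, the related sensor MDA5, went the other way, with 354 and 321 in EBi3KO tumor, 530.2 and 551 in EBi3KO nontumor, 272 and 288 in WT tumor and 635 and 487 in WT nontumor. The tumor libraries of both genotypes lay below all nontumor libraries, by 0.68 ± 0.13 on the log2 scale in EBi3KO (-0.68, adjusted p = 0.0092) and by 0.99 ± 0.13 in WT (-0.99, adjusted p = 0.00014). Zbp1, a sensor of Z-form nucleic acid, rose by 0.25 ± 0.10 in WT tumor (adjusted p = 0.042), a call lost under 6 of 12 alternatives, with values of 0.13 without the first WT nontumor library and 0.95 in the length and GC fit, and Dhx58, the sensor LGP2, differed there by 0.03 (95% interval -0.17 to 0.23).

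OAS family. These enzymes make the 2-5A messenger that activates the ribonuclease RNase L. Oas2 had 273 and 271 normalized counts in EBi3KO tumor, 208 and 81.5 in EBi3KO nontumor, 770.2 and 845 in WT tumor and 127 and 65.8 in WT nontumor. Its rise of 8.72-fold in WT tumor (log2 3.12 ± 0.41, adjusted p = 0.00011) was the largest of the 42 genes. In EBi3KO the tumor libraries were also the higher, by 1.06 ± 0.41, but the nontumor pair lay 1.34 log2 units apart and the difference was not called (adjusted p = 0.076). Oas3, Oasl1 and Oasl2, of which the last 2 are OAS-like proteins, rose in WT tumor by 0.56, 0.51 and 0.63 on the log2 scale and were not called in EBi3KO. In the length and GC fit Oas3 was at 0.20 in WT and not called. Oas1a fell in both, by 0.50 ± 0.15 in EBi3KO (-0.50, adjusted p = 0.039) and by 0.83 ± 0.15 in WT (-0.83, adjusted p = 0.00093). Oas1a, Oas2 and Oas3 lie within chromosome 5 from 120730333 to 120907544 (GRCm38.p6). Oas1a has close copies such as Oas1g, among which reads could be split.

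IFIT proteins, which bind viral RNA. Ifit2 had 400.1 and 445 normalized counts in EBi3KO tumor, 372 and 522 in EBi3KO nontumor, 908 and 853 in WT tumor and 511 and 490 in WT nontumor. It was high in WT tumor alone, with a rise of 0.81 ± 0.15 (adjusted p = 0.00093), which was 0.30 and not called in the length and GC fit. Ifit3 differed by 0.00 in WT (95% interval -0.23 to 0.24) and fell by 0.35 ± 0.10 in EBi3KO tumor (-0.35, adjusted p = 0.033). Ifit1 was not called in either. Ifit3 has a near-identical copy, Ifit3b, and reads between them are uncertain.

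Other antiviral effectors. Mx1 and Mx2 encode GTPases that block virus replication, and the C57BL/6 strain is known for a nonfunctional Mx1 allele. Mx1 had 233 and 236 normalized counts in EBi3KO tumor, 165 and 71.3 in EBi3KO nontumor, 584 and 658 in WT tumor and 89.4 and 71.3 in WT nontumor. The tumor libraries exceeded the nontumor libraries in both genotypes, by 1.10 ± 0.32 in EBi3KO (2.15-fold, adjusted p = 0.033) and by 2.94 ± 0.32 in WT (7.68-fold, adjusted p = 3.8e-05). The EBi3KO nontumor pair lay 1.20 log2 units apart, and the EBi3KO difference was 1.70 without its first library and 0.51, not called, without its second; 6 of 12 alternatives lost this call. Mx2, which lies near Mx1 on chromosome 16, followed the same order with 121 and 111 in EBi3KO tumor, 94.5 and 43.3 in EBi3KO nontumor, 262 and 312 in WT tumor and 50.3 and 43.9 in WT nontumor. It rose in WT by 2.58 ± 0.32 (adjusted p = 7.3e-05), and the difference of 0.84 ± 0.32 in EBi3KO was not called (adjusted p = 0.068). Adar, which edits double-stranded RNA, had 3370 and 3311 in EBi3KO tumor, 2902 and 2687 in EBi3KO nontumor, 5388 and 5587 in WT tumor and 2796 and 2589.9 in WT nontumor. Its groups did not overlap in either genotype, with rises of 0.26 ± 0.07 in EBi3KO (adjusted p = 0.030) and 1.03 ± 0.07 in WT (adjusted p = 3.8e-06). Samhd1, which depletes nucleotides, rose by 0.69 ± 0.07 in WT tumor.

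Rsad2, the antiviral enzyme viperin, had 237 and 253 normalized counts in EBi3KO tumor, 489 and 899 in EBi3KO nontumor, 417 and 374 in WT tumor and 382 and 424 in WT nontumor. EBi3KO nontumor was the highest group with the widest spread, EBi3KO tumor the lowest, and the WT groups overlapped. It fell 2.70-fold in EBi3KO tumor (log2 -1.43 ± 0.24, adjusted p = 0.0042) and differed by -0.03 ± 0.24 in WT (adjusted p = 0.92). Cmpk2, a nucleotide kinase gene next to Rsad2 on chromosome 12, fell by 0.47 ± 0.10 in EBi3KO tumor (-0.47, adjusted p = 0.012) and was not called in WT. Isg20, an exonuclease, had 436 and 455 in EBi3KO tumor, 1032 and 1179 in EBi3KO nontumor, 318 and 258 in WT tumor and 866 and 1030.2 in WT nontumor. Both tumor groups lay far below both nontumor groups, with falls of 2.48-fold in EBi3KO (log2 -1.31 ± 0.13, adjusted p = 0.00039) and 3.29-fold in WT (log2 -1.72 ± 0.13, adjusted p = 5.6e-06).

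**Figure D3:**
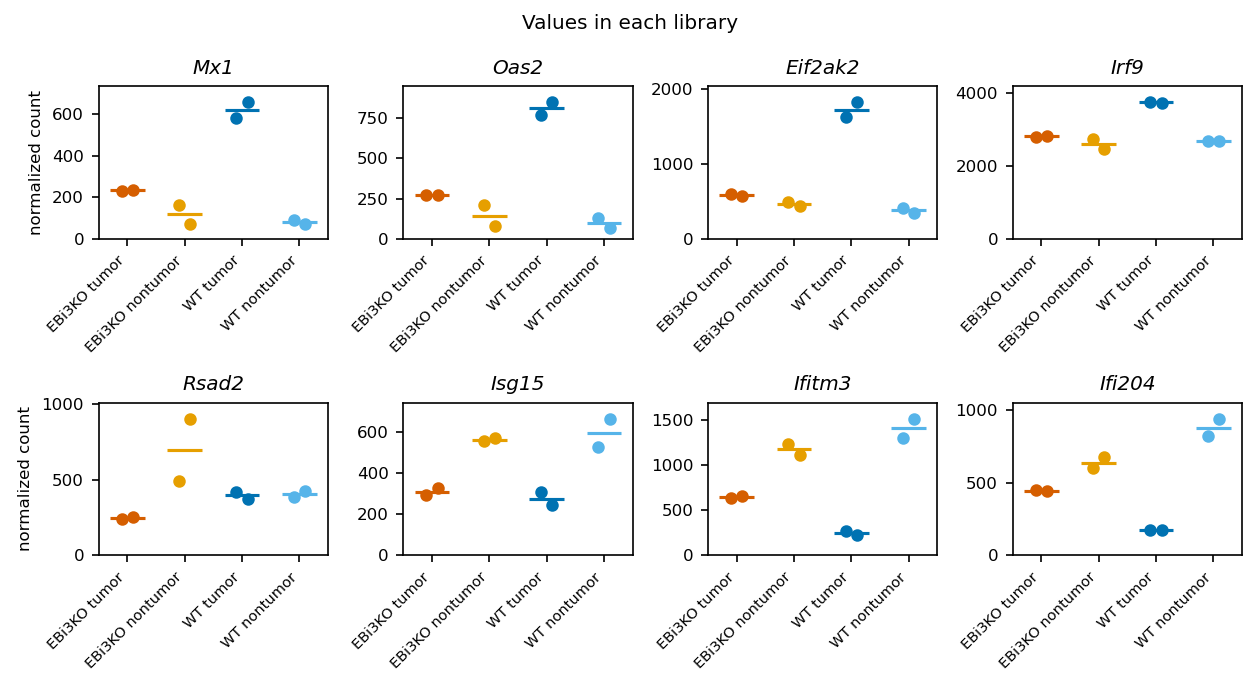
Normalized count (vertical axis, from 0) of 8 interferon-stimulated genes in each library, with a line at the mean of each group of 2. Mx1, Oas2, Eif2ak2 and Irf9 are highest in WT tumor, Isg15, Ifitm3 and Ifi204 are lower in both tumor groups than in the nontumor groups, and Rsad2 is lowest in EBi3KO tumor.

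Membrane restriction factors. Ifitm3, which blocks virus entry at endosomes, had 638 and 655 normalized counts in EBi3KO tumor, 1233 and 1117 in EBi3KO nontumor, 268 and 232 in WT tumor and 1304 and 1513 in WT nontumor. EBi3KO tumor lay between WT tumor and the nontumor groups. The fall was 1.81-fold in EBi3KO (log2 -0.86 ± 0.11, adjusted p = 0.0013) and 5.62-fold in WT (log2 -2.49 ± 0.11, adjusted p = 4.3e-07). Bst2, the tetherin that holds budding virus at the cell surface, had 1026 and 1061 in EBi3KO tumor, 1344 and 1467 in EBi3KO nontumor, 595 and 490.0 in WT tumor and 1361 and 1643 in WT nontumor. It took the same order of groups, with falls of 0.43 ± 0.12 in EBi3KO (-0.43, adjusted p = 0.030) and 1.47 ± 0.12 in WT (-1.47, adjusted p = 8.0e-06).

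Isg15 and the ubiquitin system. Isg15, the ubiquitin-like modifier, had 292 and 326 normalized counts in EBi3KO tumor, 555 and 572 in EBi3KO nontumor, 309 and 243 in WT tumor and 527 and 664 in WT nontumor. The tumor groups of both genotypes overlapped with each other and lay below both nontumor groups. The falls were 1.82-fold in EBi3KO (log2 -0.86 ± 0.15, adjusted p = 0.0055) and 2.15-fold in WT (log2 -1.11 ± 0.15, adjusted p = 0.00015), the second of which was -0.17 and not called in the length and GC fit. Trim25, the ubiquitin ligase of RIG-I, had 3023 and 3185 in EBi3KO tumor, 2489 and 2384 in EBi3KO nontumor, 5749.8 and 6209 in WT tumor and 2415 and 2410.2 in WT nontumor. It was highest in WT tumor with EBi3KO tumor next, and rose by 0.35 ± 0.07 in EBi3KO (adjusted p = 0.010) and 1.31 ± 0.07 in WT (adjusted p = 1.1e-06). Dtx3l, a ligase partner of Parp9, Herc6, the mouse ligase for Isg15, and Trim30a rose in WT tumor by 0.94, 0.67 and 0.65 and were not called in EBi3KO; in the length and GC fit Herc6 came to -0.06 and Trim30a to 0.12 in WT, neither called. Usp18, which removes Isg15, differed by 0.07 in WT (95% interval -0.30 to 0.44) and by -0.16 in EBi3KO.

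PARP family of ADP-ribosyltransferases. Parp14, Dtx3l and Parp9 lie within chromosome 16 from 35831892 to 35972621. Parp14 had 2030.2 and 2057 normalized counts in EBi3KO tumor, 1941 and 1515 in EBi3KO nontumor, 4340.3 and 5057 in WT tumor and 1606 and 1346 in WT nontumor. It was high in WT tumor alone, where it rose 3.18-fold (log2 1.67 ± 0.13, adjusted p = 6.8e-06), and Parp9 rose by 0.43 ± 0.07, which was 0.10 and not called in the length and GC fit. Parp12, on chromosome 6, had 134 and 169.6 in EBi3KO tumor, 273 and 322 in EBi3KO nontumor, 79.4 and 65.3 in WT tumor and 355 and 438 in WT nontumor. It moved opposite to Parp14 and Parp9 in WT, with a fall of 5.42-fold (log2 -2.44 ± 0.18, adjusted p = 4.7e-06), and fell 1.96-fold in EBi3KO (log2 -0.97 ± 0.18, adjusted p = 0.0072).

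Nuclear and other genes. Ifi204, a DNA-sensing member of the p200 family whose members have similar sequences, had 448 and 442 normalized counts in EBi3KO tumor, 601 and 676 in EBi3KO nontumor, 175 and 172 in WT tumor and 819 and 939.7 in WT nontumor. Lgals3bp, a secreted glycoprotein, had 1801 and 1857 in EBi3KO tumor, 2861 and 3609 in EBi3KO nontumor, 1009 and 946 in WT tumor and 3384 and 3888 in WT nontumor. Ifi27l2a had 4398 and 4417 in EBi3KO tumor, 6242 and 6169.7 in EBi3KO nontumor, 3121 and 2787 in WT tumor and 7112 and 7958 in WT nontumor. All 3 were lowest in WT tumor, with EBi3KO tumor above it and the nontumor groups highest. In WT they fell 5.02-fold, 3.71-fold and 2.55-fold, and in EBi3KO 1.43-fold, 1.76-fold and 1.41-fold. Sp100, a nuclear body protein, rose by 0.98 ± 0.08 in WT tumor (adjusted p = 8.0e-06). Ifi44, Ifi35 and Rtp4 fell in WT tumor by 0.93, 0.52 and 0.34 on the log2 scale, Xaf1 and Phf11d were not called, and none of these 5 was called in EBi3KO. In the length and GC fit, Ifi35 and Rtp4 were at 0.25 and 0.21 in WT.

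Per kilobase of transcript, the levels in WT nontumor were highest for Ifi27l2a (16274 normalized counts per kilobase), Sp100 and Samhd1, and lowest for Mx2 (19.5) and Oas2 (24.7). In WT tumor Mx2 and Oas2 had 119 and 206 per kilobase, still below the median of 367 for the 42 genes there.

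**Figure D4:**
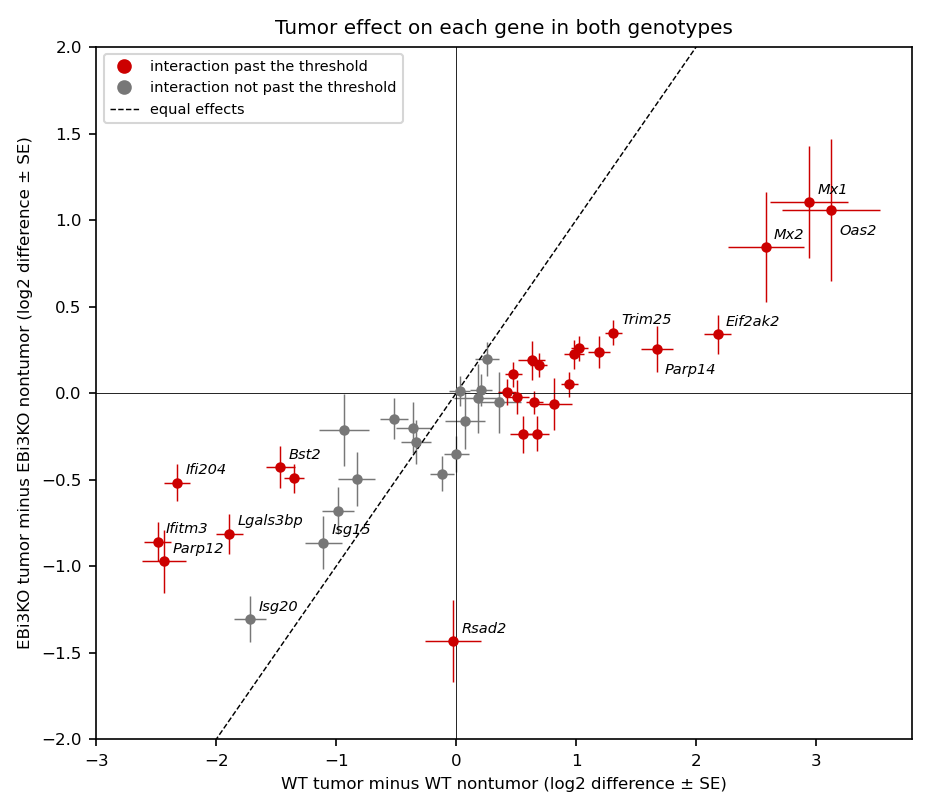
Log2 difference between tumor and nontumor libraries in WT (horizontal) and in EBi3KO (vertical) for the 42 genes, with bars for the standard error; red marks genes whose interaction passed the threshold and the dashed line marks equal effects. Oas2, Mx1 and Mx2 lie farthest right, Ifitm3, Parp12 and Ifi204 farthest left, and Rsad2 lies lowest, with no difference called in WT.

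Without the WT tumor libraries, 13 of the 42 genes and 3407 of all tested genes were called in the tumor effect in EBi3KO. Mx1, Oas1a and Ifit3 lost their calls there. The count in EBi3KO rested on few libraries. It was 16 genes with all libraries, 6 with the EBi3KO tumor libraries averaged as 1, 4 without the first EBi3KO tumor library, 6 without the second and 6 without the second EBi3KO nontumor library. The falls of Rsad2, Isg20, Ifitm3 and Lgals3bp were called under all 12 alternatives. The rises of Mx1, Trim25 and Adar were each lost when the EBi3KO tumor libraries were averaged, with adjusted p of 0.14, 0.090 and 0.16 from limma.

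Without a tumor, no gene was called between the genotypes. Of the 13011 tested genes 0% were called between EBi3KO nontumor and WT nontumor, and 0 of the 42. At an unadjusted p below 0.05, limma gave 1049 genes (8.06%) and 9 of the 42, edgeR called 0 genes after adjustment, and DESeq2 called 21, of which 0 were among the 42. The differences of the 42 ran between -0.54 (Ifi44) and 0.72 (Rsad2), with a median of -0.07 and with 14 above and 28 below 0. The genes of smallest p were Ifi204, with 601 and 676 normalized counts in EBi3KO nontumor against 819 and 939.7 in WT nontumor, Oasl2, with 259 and 252 against 324 and 364, Rtp4, with 530.2 and 602 against 689 and 852, and Ifi27l2a, with 6242 and 6169.7 against 7112 and 7958. In these 4, picked for their small p, the EBi3KO values lay below the WT values. Of the 9 genes with an unadjusted p below 0.05 (limma), 7 were lower and 2 higher in EBi3KO nontumor. The smallest adjusted p of the 42 was 0.55.

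With a tumor, the order of the genotypes was mostly EBi3KO below WT. Of the 42 genes, 27 (64.3%) were lower and 7 (16.7%) higher in EBi3KO tumor than in WT tumor, against 28.6% and 31.9% of all tested genes (60.5% either way), and the median was -0.52. The lower genes were led by Oas2 (log2 -1.56 ± 0.41, adjusted p = 0.010), Eif2ak2 (-1.56 ± 0.11, adjusted p = 2.3e-05), Mx1 (-1.40 ± 0.32, adjusted p = 0.0053) and Mx2 (-1.30 ± 0.32, adjusted p = 0.0069). Parp14, Ifit2, Trim25 and Ddx58 followed at -1.20, -1.06, -0.95 and -0.90. All 3 IFIT genes and 6 of the 7 other antiviral effectors were lower. Of these, Rsad2 lost its call under 7 of 11 alternatives, among them each tumor library left out, and Ifit1 under 3 of 11; Mx2 and Oas2 lost theirs without the second WT tumor library (adjusted p = 0.054 and 0.058, limma). The 7 higher genes were Ifitm3 (1.37 ± 0.11, adjusted p = 3.5e-05), Ifi204 (1.35 ± 0.11, adjusted p = 3.2e-05), Parp12 (1.06), Bst2 (0.95), Lgals3bp (0.90), Isg20 (0.63) and Ifi27l2a (0.58). This comparison uses the same WT tumor libraries as the tumor effect in WT, so genotype cannot be told apart in it from sex and title prefix. The length and GC fit put Isg20 at -0.18 and Ifi27l2a at -0.20, neither called, Bst2 at 0.17, also not called (adjusted p = 0.19), and Isg15 at -0.53 (adjusted p = 0.011, limma), against 0.17 (adjusted p = 0.35) without it.

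The tumor effect itself differed between the genotypes for 26 of the 42 genes. It was lower in EBi3KO for 20 (47.6%) and higher for 6 (14.3%), beside 25.4% and 27.5% of all tested genes (52.9% either way). As WT tumor alone differs in sex and title prefix, genotype cannot be told apart from these here. The interaction was -2.07 ± 0.58 for Oas2 (adjusted p = 0.016), -1.84 ± 0.16 for Eif2ak2 (adjusted p = 0.00014), -1.84 ± 0.46 for Mx1 (adjusted p = 0.0096), -1.74 ± 0.45 for Mx2 (adjusted p = 0.011) and -1.42 ± 0.19 for Parp14 (adjusted p = 0.00063). Rsad2 was at -1.41 ± 0.33 (adjusted p = 0.0078), from -1.43 in EBi3KO and -0.03 in WT. The 6 positive values belonged to genes that fell less in EBi3KO: Ifi204 (1.81), Ifitm3 (1.63), Parp12 (1.46), Lgals3bp (1.08), Bst2 (1.04) and Ifi27l2a (0.86). The length and GC fit lost the calls of Bst2 (0.21), Ifi27l2a (0.095) and Rsad2 (-1.02, adjusted p = 0.052, limma), and Oas2 was not called without the second WT tumor library (adjusted p = 0.056). Isg15 (0.24 ± 0.21, adjusted p = 0.36) and Isg20 (0.41 ± 0.19, adjusted p = 0.096) were not called.

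Upstream of these genes, 8 of the 10 interferon ligands looked at were not detected at this depth. Ifnb1, Ifna1, Ifna2, Ifna4, Ifna5, Ifne, Ifnl2 and Ifnl3 had 0 reads in all 8 libraries, which allows up to 3 reads in each, counting error only. Ifnk had 0 reads in 5 libraries and at most 5. Ifng, the type II ligand, had 42.6 and 35.7 normalized counts in EBi3KO tumor, 14.1 and 11.5 in EBi3KO nontumor, 16.7 and 7.87 in WT tumor and 22.4 and 19.2 in WT nontumor, and rose in EBi3KO tumor by 1.55 ± 0.39 (adjusted p = 0.021). Markers of T cells, a common source of Ifng, took 0.00333% to 0.00337% of reads in EBi3KO tumor and 0.00246% to 0.00280% in EBi3KO nontumor, and their part in the Ifng value was not tested.

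Ifnar1 rose with the tumor in both genotypes. It had 2336 and 2391 normalized counts in EBi3KO tumor, 1712 and 1342 in EBi3KO nontumor, 3926 and 4269 in WT tumor and 1515 and 1279.9 in WT nontumor, a rise of 0.64 ± 0.12 in EBi3KO (adjusted p = 0.0085) and 1.56 ± 0.12 in WT (adjusted p = 6.7e-06). Ifnar2 went the other way in WT, at -0.48 ± 0.08 (adjusted p = 0.00053), and was at -0.22 ± 0.08 in EBi3KO (adjusted p = 0.063). Stat2 rose by 0.41 ± 0.11 in EBi3KO (adjusted p = 0.028) and 1.30 ± 0.11 in WT (adjusted p = 1.1e-05). In tumor mice Ifnar1 was at -0.79, Stat2 at -0.65 and Ifnar2 at 0.21 (EBi3KO minus WT), and all 3 were called (adjusted p = 0.00073 for Ifnar1, 0.0014 for Stat2 and, just inside the threshold, 0.0497 for Ifnar2, limma). The interaction was called for Ifnar1 (-0.91) and Stat2 (-0.88). In nontumor mice these 3 genes ran between -0.05 and 0.23, with none called.

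The counts of these lists stand beside calls over all tested genes of 79.8% for tumor in WT, 32.6% for tumor in EBi3KO and 60.5% between EBi3KO tumor and WT tumor. Of the 7 receptor and kinase genes, 5 rose and 2 fell in WT tumor, with Jak1 at 0.76 and Tyk2 at 0.70, and 2 rose in EBi3KO tumor. Of 7 STAT and IRF factors 3 rose and 2 fell in WT, and Stat2 and Irf1 (0.49) rose in EBi3KO. Among 12 sensors and adaptors 8 rose and 2 fell in WT, led by Tlr9 (1.66), the endosomal DNA receptor, and Traf3 (1.55), while 2 rose and 1 fell in EBi3KO; Tlr7, at 0.54 in WT, is X-linked. Of 6 inhibitors 3 rose in WT, and Socs3 (0.80) and Ptpn6 (0.22) rose in EBi3KO. Among 48 tested further interferon-stimulated genes 29 rose and 14 fell in WT (median 0.53), 12 rose and 5 fell in EBi3KO (median 0.13), and 10 were higher and 24 lower in EBi3KO tumor than in WT tumor (median -0.34). Of the 6 with the smallest p, Slfn8 (2.29), Slfn5 (1.22) and Trim30d (1.01) rose in WT tumor and Ifitm2 (-3.46), Ifi205 (-2.94) and Epsti1 (-1.10) fell, and in EBi3KO tumor Slfn8 (0.63) rose and Ifitm2 (-0.81) fell.

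Transcript length and markers of other cells moved with these values. The 5 of the 42 genes with transcripts under 1000 bases, Isg15, Isg20, Bst2, Ifitm3 and Ifi27l2a, fell in both tumor effects. Of all tested genes of any length, 40.1% fell in WT and 18.5% in EBi3KO. The shares among all tested genes under 1000 bases are not given here. The median length was 3762 bases for the genes that rose in WT and 1625 for those that fell. Across the 42 genes Spearman's rho between length and log2 difference was 0.60 in WT and 0.37 in EBi3KO, and across 12868 tested genes it was 0.44 and 0.26 within the same libraries. Ifih1 (4543 bases) and Parp12 (3231 bases) were long transcripts that fell. The part of length in these differences was not tested beyond the length and GC fit, in which 20 of the 42 genes were higher and 11 lower in WT tumor, and 5 higher and 11 lower in EBi3KO tumor.

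**Figure D5:**
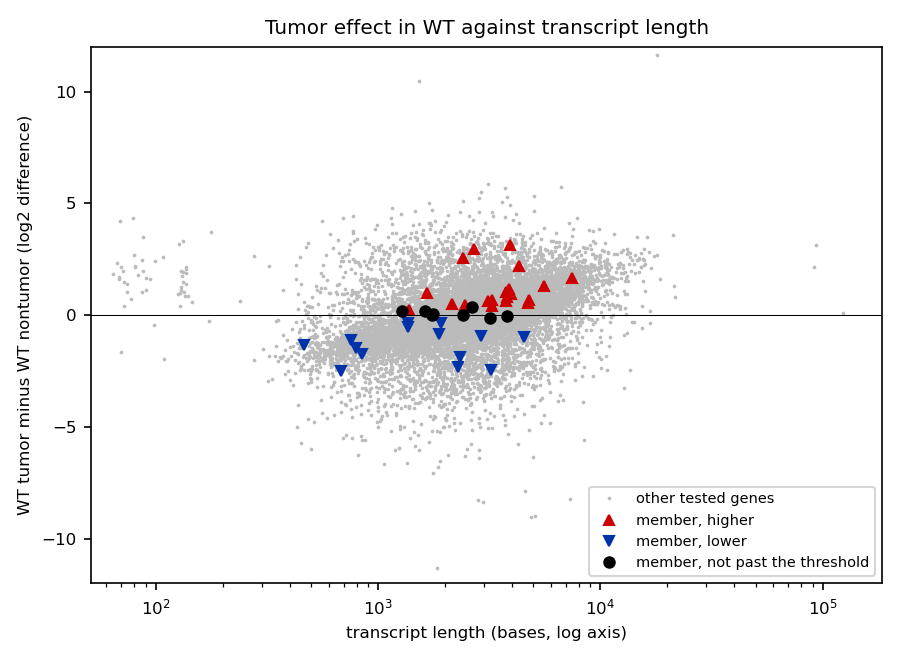
Log2 difference between WT tumor and WT nontumor against transcript length in bases (log axis), with other tested genes in grey, the 20 genes of the set that rose as red triangles, the 14 that fell as blue triangles and the other 8 in black. The 5 shortest genes of the set all lie below 0, as do longer ones such as Ifih1 and Parp12.

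Summed markers of monocytes and macrophages took 0.299% to 0.301% of reads in EBi3KO tumor and 0.451% to 0.564% in EBi3KO nontumor, and 0.0586% to 0.0664% in WT tumor and 0.502% to 0.546% in WT nontumor. All 14 were lower in the tumor effect in WT (median -3.58), 12 of 14 in that in EBi3KO (median -0.94), and all 14 were higher in EBi3KO tumor than in WT tumor (median 2.36). Both WT tumor libraries also lay below the 6 others for 11 of the 42 genes, each with EBi3KO tumor next, and for 38.4% of all tested genes. Erythroid markers took 0.292% to 0.301% in EBi3KO tumor and 1.08% to 1.56% in EBi3KO nontumor, and 0.0887% to 0.119% in WT tumor and 0.624% to 0.677% in WT nontumor, and 10 of 10 were lower in both tumor effects. Markers of plasmacytoid dendritic cells, which are known as strong interferon producers, took 0.0127% in EBi3KO tumor and 0.0104% to 0.0120% in EBi3KO nontumor, and 0.0210% to 0.0227% in WT tumor and 0.00932% to 0.0105% in WT nontumor, with 2 of 8 higher and 3 of 8 lower in WT (median -0.29). Tcf4, which B cells also express, made up most of that sum, with 3769 and 4047 normalized counts in WT tumor against 2182 and 1948 in WT nontumor. Siglech, a defining marker, had 80.2 and 85.7 in WT tumor against 161 and 119 in WT nontumor.

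Naive B cell markers took 0.233% to 0.234% of reads in EBi3KO tumor and 0.190% to 0.202% in EBi3KO nontumor, and 0.367% to 0.382% in WT tumor and 0.166% to 0.201% in WT nontumor. All 4 in the table were higher in the tumor effect in WT (median 0.65) and lower in EBi3KO tumor than in WT tumor (median -0.50, beside -0.52 for the 42 genes), and 0 were called in the tumor effect in EBi3KO. Between EBi3KO tumor and WT tumor, 5 of 6 plasma cell, 7 of 8 T cell and 8 of 8 NK cell markers were higher, and in the tumor effect in EBi3KO 5 of 6 plasma cell markers were higher. All 14 monocyte and macrophage markers, all 8 of plasmacytoid dendritic cells and the 10 erythroid markers in the table, of 12 listed, passed the filter on low values. The part of all these cell types in the values of the 42 genes was not tested.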

How the data were processed

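RNA of naive splenic B cells was measured in 8 libraries, 2 in each of 4 groups set by the labels for genotype and tumor status. Stranded paired-end mRNA libraries were made, per the labels' protocols. The submitters' processing notes name Salmon, DESeq2 and the build mm10, with each version not given in the sources used here. What the authors deposited is a signal of 1 normalized count per gene symbol and library. Dividing each library's values by the worth of 1 read gave whole reads for 100% of values within a tolerance of 0.01, which gave depths of 21291892 to 28297319 reads.

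The 42 genes, the other lists and the tests were chosen with earlier results of these data known. Genes with a mean of at least 10 were tested on log2(normalized count + 1) with limma 3.58.1 in R 4.3.3 (trend, 1 mean per group, 4 residual and 4.64 prior degrees of freedom), two-sided, with Benjamini-Hochberg adjustment over all 13011 tested genes within each of 5 comparisons and a threshold of 0.05. Log2 differences understate changes of low genes; errors are standard errors, and intervals are 95%. The fits were also run on simulated data in which few genes changed and all groups had the same spread. The libraries here are unlike that, so the run does not show how the fits do on them. Values per library are given for up to 8 rises and 8 falls per comparison among called genes of the set whose groups do not overlap and whose higher mean is at least 50; other genes are given by count, range or log2 difference. Of the other lists, up to 6 genes of smallest p in the tumor effects may be named, with Stat2, Ifnar1 and Ifnar2 throughout and Ebi3 as the targeted gene; Ifng was the tested ligand.

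Alternatives were a pseudocount of 5, no filter, quantile normalization, a fit that takes out of every library its dependence on transcript length and GC content (splines, 12868 genes), count tests of the recovered reads with edgeR 4.0.16 and DESeq2 1.42.0, the fit without the WT tumor libraries, the EBi3KO tumor libraries averaged, a replicate block by title number, and each library left out. Transcript lengths and GC content are from GENCODE basic transcripts, with the median length of a gene's protein-coding transcripts where it has any. Positions and promoters are from RefSeq (GRCm38.p6). Under older symbols, Ifit3b, Ifit1bl1, Ifit1bl2, Jchain, Adgre1 and Hbb-bs were found; Ighm, Ighd, Ly6g, Hbb-bt, Ahsp, Trac, Trbc1 and Rnf213 were not analysed here, and some genes of these lists are not reported here.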

Additional observations from a re-analysis of the deposited data

Results flagged for a closer look

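For 26 of the 42 genes the tumor effect differed between the genotypes in the interaction test (EBi3KO minus WT, limma, adjusted over all tested genes), which 52.9% of all tested genes also passed and which carries the sex difference of the WT tumor libraries. The log2 interaction was -2.07 for Oas2, -1.84 for Eif2ak2, -1.84 for Mx1, -1.74 for Mx2, -1.42 for Parp14 and -1.41 for Rsad2. It was -0.96 for Trim25, -0.95 for Ddx58, -0.90 for Herc6, -0.89 for Dtx3l, -0.88 for Ifit2, -0.80 for Oas3, -0.77 for Adar, -0.76 for Sp100 and -0.71 for Trim30a. Smaller values were -0.53 for Oasl1, -0.53 for Samhd1, -0.44 for Oasl2, -0.42 for Parp9 and -0.37 for Irf9. Positive values were 0.86 for Ifi27l2a, 1.04 for Bst2, 1.08 for Lgals3bp, 1.46 for Parp12, 1.63 for Ifitm3 and 1.81 for Ifi204. Of the 26, 16 were called under every alternative run.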

How the results depend on the processing

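The number of the 42 genes called stayed within 1.5 times under every alternative in the interaction, in the tumor effect in WT and in EBi3KO tumor against WT tumor. In the tumor effect in EBi3KO, averaging the EBi3KO tumor libraries gave 736 genes and 6 of the 42, against 4242 and 16. Leaving out each EBi3KO replicate gave 756 to 4827 genes and 4 to 18 of the 42 there, leaving out each of the 8 libraries 756 to 5313 genes and 4 to 21 of the 42, and leaving out each replicate gave 0 to 5 genes in the genotype effect in nontumor mice, where the main count was 0. In that comparison removal of the length and GC trend gave 1 gene and DESeq2 gave 21, with 0 of the 42 in each; the cause was not tested. Quantile normalization called 2477 genes higher and 2130 lower in the tumor effect in EBi3KO (7 and 13 of the 42), and removal of the length and GC trend 2116 and 1966 (5 and 11 of the 42), against 1841 and 2401 (3 and 13 of the 42). Removal of that trend turned the direction of Irf7 (0.15), Ifi35 (0.25), Rtp4 (0.21) and Herc6 (-0.062) in the tumor effect in WT, of Isg15 (-0.53), Isg20 (-0.18) and Ifi27l2a (-0.20) between EBi3KO tumor and WT tumor, and of Isg20 (-0.45) in the interaction, by construction through transcript length and GC content. Genes called under every alternative were 24 of 34 in the tumor effect in WT, 4 of 16 in that in EBi3KO, 16 of 26 in the interaction and 23 of 34 between EBi3KO tumor and WT tumor.

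The WT groups share title numbers, and same-numbered libraries deviated in opposite ways from their group means (r = -0.26 over 13011 genes), so the numbers are not shown to pair samples. With the title number as a replicate block, 34 of the 42 genes and 10158 genes in all were called in the tumor effect in WT, and 25 and 6334 in the interaction. With the pairing crossed, an alternative chosen after seeing the data, these were 35 and 10519, and 30 and 7372. Groups of 2 libraries limit every comparison, and the sex difference limits those with WT tumor.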
